A study of Mus musculus with 2 samples.

Results

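Neutrophil granule and calprotectin transcripts were measured in mutant and control mouse ureters with the 9 genes S100a8, S100a9, Camp, Ltf, Ngp, Lcn2, Mpo, Elane and Prtn3. They were chosen by name, with earlier ratios from the same 2 arrays in view, so their mutant over control ratios are a description and carry no test. Every array probe whose gene name was one of these was taken, which gave 11 probes, and all 9 genes were among the 20923 genes tested. The mutant pools (Fgfr2cKO) carried Pax2-cre/+ together with Fgfr2(fl/fl) and Fgfr1(fl/?), and the control pools carried Fgfr2(fl/?) and Fgfr1(fl/?) without the Cre. Both were ureters of NMRI embryos dissected at E13.5. The question mark stands for a wild-type or a floxed allele, and embryos with either form of Fgfr1 went into the same mutant pool. Fgfr1 and Fgfr2 are receptors for fibroblast growth factors, and the Cre is driven from Pax2, a gene of the nephric duct lineage, so other cells in the dissected ureter, blood cells among them, need not carry the deletion. Array 1 held the female pools, with mutant RNA in Cy5 and control RNA in Cy3, and array 2 held the male pools with the dyes exchanged. With 1 array per sex, sex and dye orientation cannot be told apart.

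Neutrophils build their granules in a fixed order as they mature in the bone marrow or, in the embryo, the fetal liver. Promyelocytes make the proteins of the early (primary or azurophil) granules, which are myeloperoxidase (Mpo) and the serine proteases neutrophil elastase (Elane) and proteinase 3 (Prtn3). Later stages stop making those transcripts and make the proteins of the late (secondary or specific) granules, among them the cathelicidin Camp, lactoferrin (Ltf), neutrophilic granule protein (Ngp) and lipocalin 2 (Lcn2). S100a8 and S100a9 form calprotectin, a calcium- and zinc-binding complex that fills the cytosol of mature neutrophils and is also made by monocytes. The ureter of this stage is an epithelial tube in mesenchyme, with vessels and macrophages among its cells.

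4 probes are shown as examples of what was hybridised, 1 for calprotectin, 2 for the late granule proteins and 1 for the early ones. Each is 60 bases long, as in the deposited scanner files, 5′ to 3′ on the strand of the transcript.
S100a8: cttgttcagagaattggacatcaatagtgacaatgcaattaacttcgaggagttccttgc
Ltf: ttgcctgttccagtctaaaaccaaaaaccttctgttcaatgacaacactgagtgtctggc
Ngp: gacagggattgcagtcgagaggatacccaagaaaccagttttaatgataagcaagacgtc
Prtn3: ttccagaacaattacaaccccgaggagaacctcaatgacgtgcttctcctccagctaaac
On mm9, the build named in the files, the S100a8 probe lies at chr3:90473778-90473837 on the plus strand and starts at base 213 of its transcript. The Ltf probe lies at chr9:110942873-110942932 on the plus strand, from transcript base 1974. The Ngp probe, from transcript base 399, covers 549 bases of chromosome 9 (chr9:110324266-110324814, plus strand), and the Prtn3 probe, from transcript base 330, covers 817 bases (chr10:79343869-79344685, plus strand). Both are longer on the genome than their 60 bases, so these 2 probes join sequence on either side of an intron.

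The remaining probes with their positions on mm9 were those of S100a9 (chr3:90496573-90496632, minus strand), Lcn2 (chr2:32240199-32240258, minus strand), Elane (chr10:79350902-79350961, plus strand), the brighter Mpo probe (chr11:87617840-87617899, plus strand), the dimmer Mpo probe (chr11:87615121-87615180, plus strand) and the 2 Camp probes. The brighter Camp probe lies at chr9:109749911-109749970 on the minus strand. The dimmer Camp probe is placed at chr9:109749901-109749950 on the minus strand, which covers 50 of its 60 bases and leaves out its first 10. Those 10 hold both of the 2 differences from the brighter probe, which it overlaps by 50 bases. The stretch shown is chr9:109749941-109749960 by the position of the brighter probe, with the differing bases in capitals.
Camp, brighter probe, bases 11 to 30: cagccAgagTagtaggcctg
Camp, dimmer probe, bases 1 to 20: cagccGgagCagtaggcctg
Counted from 1 at the 5′ end of the dimmer probe, with the base of the brighter probe first, the differences are A6G and T10C. The probes were therefore not independent measurements of Camp, and they were kept apart.

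Each probe was printed 4 times per array. Between 67.9% and 77.0% of all probes were well above background in each of the 4 channels, 0 spots were saturated, and the lowest log2 level well above background was 6.25 to 6.43. A gene counts as measured where over a share of 0.5 of the spots of a probe were well above background on both arrays in 1 of the 2 groups, and this is the filter on dim probes named below. Channel levels are on the log2 scale, after loess within and Aquantile between arrays, and each is set only against the same probe in the other group. The ratios across all tested genes had an SD of 0.21 on array 1 and 0.33 on array 2. The number of arrays limits the precision, and the labels do not say how many embryos a pool held. The 2 probes of the targeted Fgfr2 were not lower in the mutant pools, with log2 ratios of 0.081 and 0.091 at 1 and 0.27 and 0.057 at the other. The sources used here do not give the position of the deleted segment, so these probes do not check the labels. Ureteric epithelium and mesenchyme markers were all measured above background (10 of 10 in each list).

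Both calprotectin genes were at least 3.93-fold higher in mutant ureters on each array, the late granule genes followed at 1.33- to 2.41-fold, and the early granule genes lay nearest to no difference on average (1.18-fold). S100a8 had log2 levels of 9.55 and 9.76 in the mutant pools of arrays 1 and 2, against 7.58 and 7.69 in the control pools. Both mutant levels lay above both control levels, with ratios of 1.98 and 2.07 and a mean of 2.02 ± 0.064 (SD, n = 2 arrays), or 4.07-fold. S100a9, its partner in the complex, had 11.30 and 11.67 in mutant pools, against 9.32 and 9.23 in control pools. Its ratios of 1.98 and 2.43 gave a mean of 2.21 ± 0.32 (SD, n = 2 arrays), or 4.61-fold, with 5.41-fold on array 2. Among the mean ratios of all 20923 genes tested, S100a9 ranked 2 and S100a8 ranked 3 from the top.

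The S100a8 spots used ranged from 1.87 to 2.08 on array 1 and from 2.03 to 2.10 on array 2, and those of S100a9 from 1.87 to 2.03 and from 2.20 to 2.72. S100a8 had 4 and 3 spots left, and S100a9 had 3 and 4, because 1 spot of each carried an outlier flag. The dropped S100a8 spot had 1.62 on array 2, and the dropped S100a9 spot had 2.17 on array 1. Repeat spots measure the print and not the embryos.

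**Figure D1:**
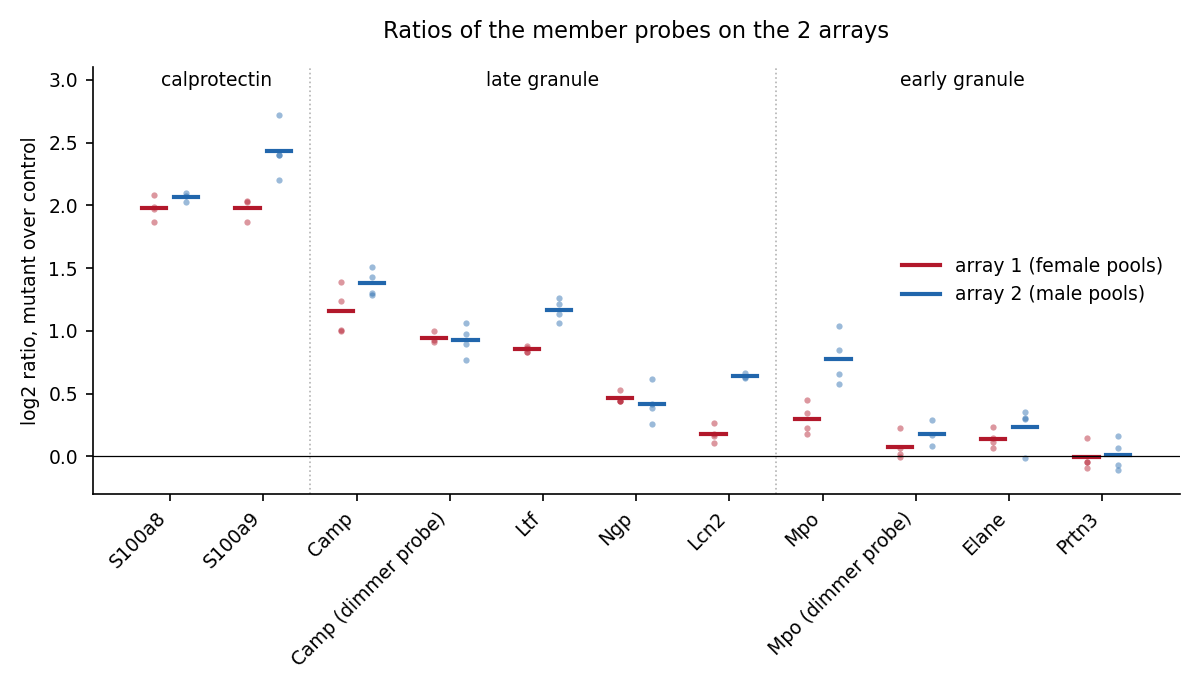
Log2 ratio of mutant over control for each of the 11 probes on array 1 (female pools) and array 2 (male pools); points are spots and bars their mean per array. S100a8 and S100a9 lie near 2 on both arrays, and Prtn3 lies at -0.0080 and 0.012.

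Among late granule genes, Camp and Ltf were at least 1.5-fold higher on both arrays and Ngp and Lcn2 were not. Camp encodes the cathelicidin precursor, from which the antimicrobial peptide CRAMP is cut in mice. Its brighter probe had 8.69 and 8.72 in mutant pools, against 7.53 and 7.34 in control pools. The mutant levels lay above both control levels, and the ratios of 1.16 and 1.38 gave a mean of 1.27 ± 0.16 (SD, n = 2 arrays), or 2.41-fold. The dimmer Camp probe had 8.01 and 7.90 in mutant pools, against 7.06 and 6.97 in control pools, with ratios of 0.95 and 0.93, or 1.91-fold at their mean.

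Ltf, an iron-binding protein of the late granules, had 7.51 and 7.66 in mutant pools, against 6.66 and 6.49 in control pools. The groups did not overlap, and the ratios of 0.85 and 1.17 gave a mean of 1.01 ± 0.22 (SD, n = 2 arrays), or 2.02-fold. On array 2, 75.0% of its control spots were well above background. With the scanner software's processed signals in place of the values with an offset, its mean ratio was 2.18, and in the authors' deposited table it was 2.21. An offset of 50 intensity units was added in both channels here, which by construction draws the ratio of a dim probe towards 0.

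Ngp, a cystatin-related protein of mouse neutrophil granules, had 6.79 and 6.63 in mutant pools, against 6.33 and 6.21 in control pools. It was well above background in all mutant spots and in 0% of control spots, so the control has only a bound, and Ngp was at least 1.25-fold higher in the mutant pools. The fitted ratios were 0.46 and 0.42. The processed signals gave a mean ratio of 2.34, with surrogate values in 2 of 4 control spots on array 2, and the authors' deposited table gave 0.89. The size of its ratio thus moved by more than 1.5-fold with the processing.

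Lcn2, an iron-siderophore-binding protein that is also made by injured epithelium, had 7.52 and 8.15 in mutant pools, against 7.34 and 7.51 in control pools. Both mutant levels were above both control levels, although the array 1 mutant and the array 2 control differed by little. Its ratios were 0.18 and 0.64, with a mean of 0.41 ± 0.33 (SD, n = 2 arrays), or 1.33-fold. The difference between the arrays was larger than for Camp, Ltf or Ngp.

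Of the early granule genes, Mpo had the largest ratios and those of Prtn3 lay near 0. Mpo, the peroxidase that makes hypochlorous acid, had 7.46 and 8.01 at its brighter probe in mutant pools, against 7.17 and 7.23 in control pools. The mutant levels lay above both control levels, with ratios of 0.30 and 0.78 and a mean of 0.54 ± 0.34 (SD, n = 2 arrays), or 1.45-fold. The second Mpo probe did not pass the filter and was not tested. It lay close to background, at 6.25 and 6.31 in mutant pools, against 6.17 and 6.13 in control pools, with ratios of 0.077 and 0.18.

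Elane, neutrophil elastase, had 8.76 and 9.27 in mutant pools, against 8.62 and 9.04 in control pools. The groups overlapped, since the array 1 mutant level lay below the array 2 control level, and the ratios of 0.14 and 0.24 gave a mean of 0.19 ± 0.067 (SD, n = 2 arrays). Prtn3, proteinase 3, had 6.93 and 6.81 in mutant pools, against 6.93 and 6.79 in control pools. Its ratios of -0.0080 and 0.012 had opposite signs, with a mean of 0.0019 ± 0.014 (SD, n = 2 arrays), and its rank was 10645 of 20923. Its probe was well above background in all spots of both groups.

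**Figure D2:**
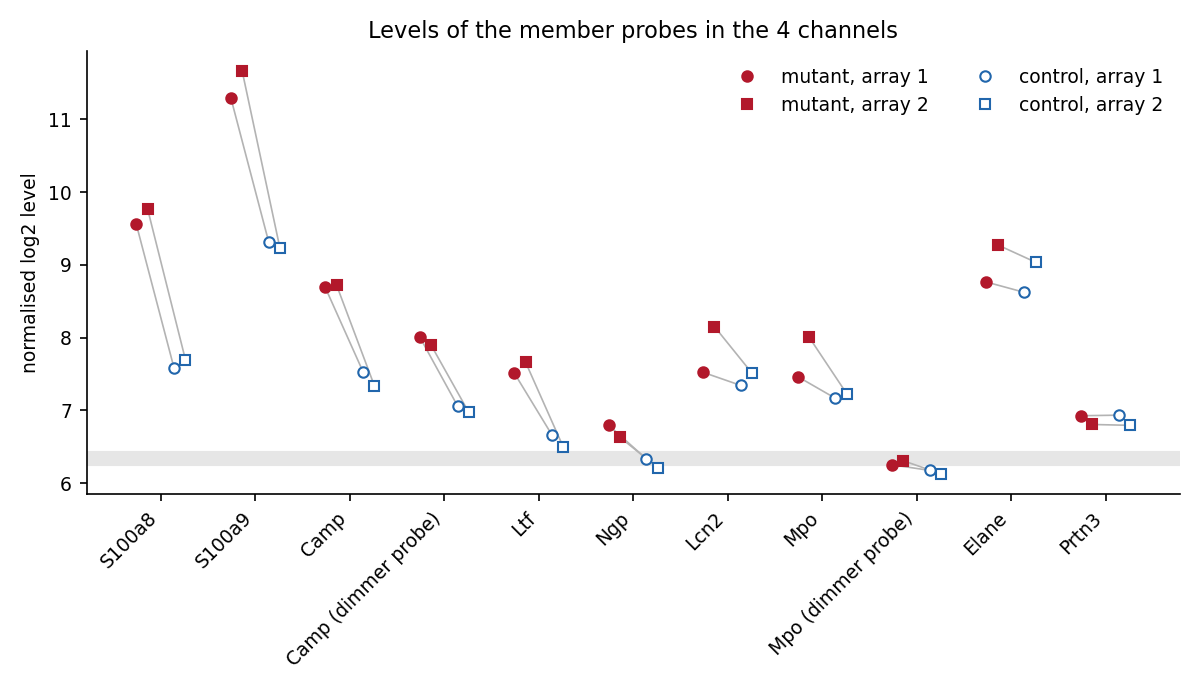
Normalised log2 level of each of the 11 probes, the untested dimmer Mpo probe among them, in mutant pools (filled) and control pools (open). Circles are array 1 and squares array 2, and the grey band spans the lowest levels well above background in the 4 channels (6.25 to 6.43). At the probe that stands for each gene, mutant and control symbols are separate for 7 of the 9 genes and overlap for Elane and Prtn3. The Ngp controls lie in or below the band.

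Of these 9 genes, 8 had positive and 0 had negative ratios on both arrays, where 22.1% of all genes tested were positive and 21.4% negative on both. At least 1.5-fold higher on both arrays were 4 of them, S100a8, S100a9, Camp and Ltf, against 0.296% of all genes, and 0 were as much lower, against 0.0956%. Both mutant levels lay above both control levels for 7, against 12.0% of all genes. By limma's moderated test with Benjamini-Hochberg adjustment over all genes, 0.0287% of genes passed, S100a8 and S100a9 among them, and neither passed after median centring or without the filter on dim probes. These shares stand beside genes chosen with their ratios known, and nothing is read from them.

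The order calprotectin, late granule, early granule held on each array. The mean log2 ratio of the 2 calprotectin genes was 1.98 on array 1 and 2.25 on array 2. That of the 4 late granule genes was 0.66 and 0.90, and that of the 3 early granule genes was 0.14 and 0.34. The late mean exceeded the early mean by 0.52 on array 1 and 0.56 on array 2, or 0.54 ± 0.029 (SD, n = 2 arrays). These late means hold the fitted ratios of Ngp, which passed the filter through the mutant pools alone and has only a bound. Without Ngp, the late mean was 0.73 on array 1 and 1.06 on array 2, and the difference was 0.59 and 0.72. In 8 of 9 pairs of one of these late genes and an early gene the late gene had the larger ratio on each array, the exception being Lcn2 with Mpo. Taking the scanner software's processed signals widened the late minus early difference to 1.38, and the authors' deposited table gave 1.05. Bulk RNA does not tell fewer or more cells of a type apart from less or more RNA per cell.

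**Figure D3:**
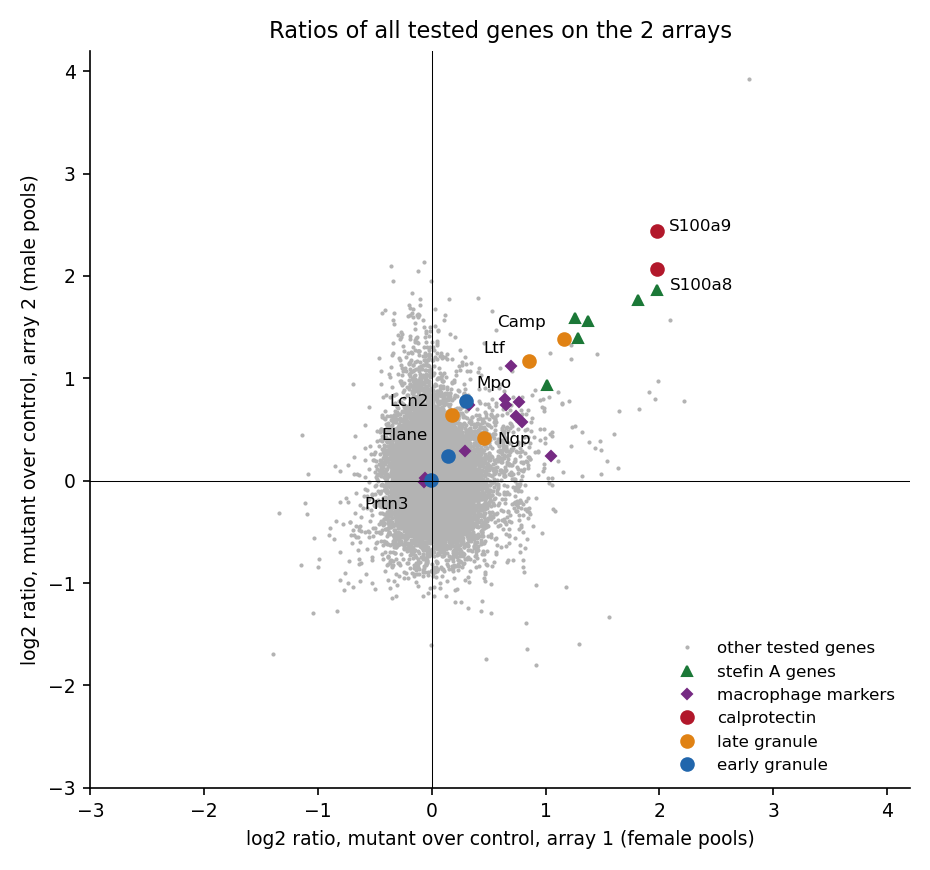
Log2 ratio of mutant over control on array 1 (horizontal) against array 2 (vertical) for all 20923 genes tested in grey, with the 9 members as circles coloured by group, the stefins as triangles and macrophage markers as diamonds. S100a8 and S100a9 lie at the upper right near 2 on both axes, Camp and Ltf near 1, and Prtn3 at the centre.

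The 5 genes outside the set whose ratios lay closest to those of calprotectin on the 2 arrays were Cstdc5, Stfa1, a transcript that the array names ENSMUST00000085379, Stfa3 and Cstdc4. The measure was the Euclidean distance, over the 2 log2 ratios, from the mean of S100a8 and S100a9. Stefins are small cystatin-type inhibitors of cysteine proteases that mouse neutrophils make in quantity. Cstdc5 had 10.15 and 10.07 in mutant pools, against 8.17 and 8.21 in control pools, with a mean ratio of 1.92 ± 0.087 (SD, n = 2 arrays) and a distance of 0.39. Stfa1 had 9.73 and 9.51 in mutant pools, against 7.92 and 7.74 in control pools, with 1.79 ± 0.032 (SD, n = 2 arrays) and a distance of 0.51. ENSMUST00000085379 had 9.98 and 9.44 in mutant pools, against 7.89 and 7.87 in control pools, with 1.84 ± 0.37 (SD, n = 2 arrays) and a distance of 0.69. Both mutant levels lay above both control levels for each of these 3, against 12.0% of all genes. All 3 passed limma's moderated test over all genes (Benjamini-Hochberg adjusted p = 0.0140 for Cstdc5, 0.0172 for Stfa1 and 0.0412 for ENSMUST00000085379). They were picked for ratios close to those of calprotectin, so separate groups and small p-values largely follow from that choice, and nothing is read from them. After median centring, or without the filter on dim probes, 0 genes passed. Stfa3 and Cstdc4 lay farther away at 0.92 and 0.98, and did not pass. Stefin genes are close copies of each other, so their probes may share signal.

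Neutrophil surface and cytosol genes outside the set were measured for 15 of 24. On both arrays 10 were higher and 1 was lower, and the median ratio was 0.36 (0.44 on array 1 and 0.73 on array 2), against a median of 0.0044 over all genes tested. The 0.36 was the value of Itgam, whose ratios had opposite signs (-0.030 and 0.75). Dimmer Itgam probes had -0.0037 and 0.018, and 0.27 and -0.24. The 0.44 was the value of Csf3r, which also had opposite signs (0.44 and -0.12). Without the 6 stefins, 4 of the other 9 genes were positive and 1 was negative on both arrays, with a median of 0.056. The 6 genes at least 1.5-fold higher on both arrays were all stefins (Stfa1, Stfa2, Stfa2l1, Stfa3, Cstdc4 and Cstdc5). Ly6g, the surface marker of mature mouse neutrophils, named after its values were seen, had 6.38 and 6.51 in mutant pools, against 6.52 and 6.49 in control pools. These levels overlapped and lay close to background. Probes of Cxcr2, Fpr1, Fpr2 and Cd177, receptors and surface proteins of circulating neutrophils that were also named after their values were seen, did not pass the filter on dim probes. Those of Cxcr2 and Fpr2 were well above background in the mutant pool of array 2 and in no other pool. That channel had the largest share of all probes well above background, 77.0% against 67.9% to 72.2% in the others, so nothing is read from this.

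Among other granule and oxidase proteins, 10 of 20 were measured, 8 had higher values on both arrays and 0 lower ones, and the median was 0.22. Hp, haptoglobin, had ratios of 0.46 and 0.67, and Ncf4, a cytosolic subunit of the phagocyte oxidase, had 0.46 and 0.52. Slc11a1, a metal transporter of phagocyte vesicles, had 0.38 and 0.49. None passed the test. The 10 that did not pass the filter included Mmp8 and Mmp9, proteases of the later granules, and Bpi, an antibacterial granule protein, named after their values were seen.

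Transcription factors of granulocyte development did not shift one way. Of 9 measured, 3 lay above 0 and 3 below 0 on both arrays, the median was 0.0039, and 0 passed. Cebpe, which drives late granule genes, had ratios of 0.17 and 0.25, and Cebpd had 0.056 and 0.40. The Cebpe probe passed the filter through the mutant pools alone. Its levels were close to background, at 6.71 and 6.74 in mutant pools, against 6.54 and 6.48 in control pools. Myb, a factor of immature progenitors, had -0.32 and -0.12, and Cebpb had -0.040 and -0.23.

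Other S100 genes had smaller ratios than calprotectin, the highest mean being 0.50. Of 12 measured, 8 lay above 0 on both arrays and 0 below it, the median was 0.20, and 0 reached 1.5-fold on both. S100b, a glial and Schwann cell protein, had 0.31 and 0.69, S100a14 had 0.29 and 0.44, S100a3 had 0.15 and 0.43, and S100a13 had 0.15 and 0.39. S100a6, the next measured gene beside the calprotectin pair on chromosome 3 and named for that place, had -0.045 and 0.39. Elane and Prtn3 are also neighbours, on chromosome 10. Camp, Ngp and Ltf lie on chromosome 9 with other genes between them, and the measured genes within 2 places on either side had mean ratios from -0.18 to 0.50, the highest being that of Spink8 near Camp (0.65 and 0.34).

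Receptors of calprotectin and lipocalin and inhibitors of granule proteases were measured for 12 of 14 genes, of which 7 lay above 0 and 1 below 0 on both arrays, and the median was 0.13. Among the 7, Cd33 passed the filter through the mutant pools alone. Serpina1a, an elastase inhibitor made by liver, had 1.99 and 0.97, and 0.85 and 0.25 at its dimmer probe. It belongs to a family of near-identical copies whose probes may share signal. Cd36, a scavenger receptor, had 0.20 and 0.97. Serpinb6b, a serpin of leukocytes, had 0.42 and 0.52, and Serpinb1a, an inhibitor of neutrophil elastase, had 0.24 and 0.31. None of the 4 passed.

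Inducers of granulocytes and acute inflammation gave no common direction. Of 9 measured, 2 lay above 0 and 1 below 0 on both arrays, the median was 0.021, and 0 passed. Cxcl1, a neutrophil chemoattractant, had -0.090 and -0.27, Cxcl5, another one, had 0.19 and 0.16, and the NF-kappaB inhibitor Nfkbia had 0.056 and 0.018. The Cxcl5 probe lay close to background and passed the filter through the mutant pools alone. Csf3, the growth factor of granulocytes, and Il6 and Cxcl2, all named after their values were seen, did not pass the filter. Csf3 was well above background in no pool, and the others in at least 1 pool but not on both arrays in the same group.

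**Figure D4:**
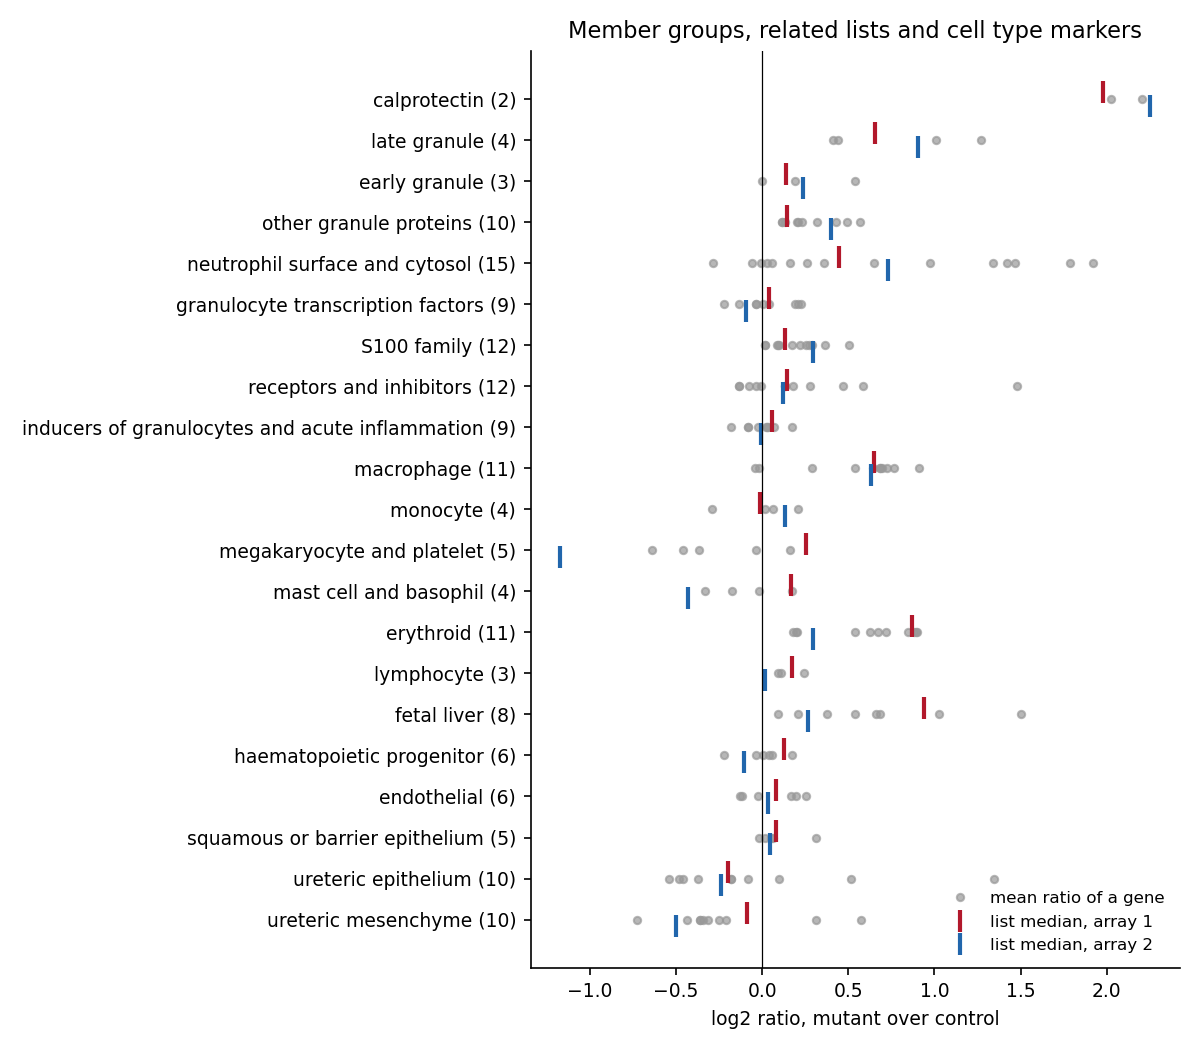
Mean log2 ratio of mutant over control for every measured gene of each list (grey points), with the list median on array 1 in red and on array 2 in blue. The calprotectin genes lie highest, macrophage markers are mostly above 0, and transcription factors and inducers lie around 0.

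Markers of macrophages, red blood cells and fetal liver, which a dissected ureter can carry, were also mostly higher in the mutant pools, and 0 of them passed the test. Of 11 macrophage markers measured of 14, 9 lay above 0 and 1 below 0 on both arrays, and the list median was 0.65 on array 1 and 0.63 on array 2. Their mean log2 level was 10.22 and 10.05 in mutant pools, against 9.69 and 9.51 in control pools. Csf1r had 0.77 on both arrays, C1qa had 0.70 and 1.12, C1qb 0.65 and 0.80, and C1qc 0.65 and 0.74. These genes code for the macrophage colony-stimulating factor receptor and the complement C1q chains. Dimmer Csf1r probes had smaller ratios, 0.34 and 0.38, and 0.15 and 0.068. Cd163, Timd4 and Fcgr1 did not pass the filter, and Fcgr1 was well above background in the mutant pool of array 2 alone (6.99, against 6.42 in the control pool). That channel also had the largest share of all probes well above background (77.0%).

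Of 11 erythroid markers, 10 lay above 0 on both arrays, and the list median was 0.87 on array 1 and 0.30 on array 2. Their mean level was 12.20 and 12.23 in mutant pools, against 11.32 and 11.91 in control pools. Fetal liver markers were higher for 8 of 8, with medians of 0.94 and 0.26, and their mean level was 9.09 and 8.51 in mutant pools, against 8.13 and 8.20 in control pools. Both lists had the larger median on array 1, where the ratios of all members but Ngp were smaller. Afp, a fetal liver protein, had 2.22 and 0.78, and Hba-a1, a haemoglobin chain, had 1.32 and 0.48.

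Markers of the ureter's own tissue ran lower for most genes but not for all. Ureteric mesenchyme markers were negative on both arrays for 7 of 10 and positive for 2, with medians of -0.089 and -0.50, and ureteric epithelium markers were negative for 6 of 10 and positive for 2, with medians of -0.20 and -0.24. The largest mean ratio of the 2 lists was positive, that of Upk3a (1.45 and 1.24), which was at least 1.5-fold higher on both arrays. Upk1b had 0.49 and 0.54, and Acta2 had 0.99 and 0.17. Among the lower genes, Foxf1 had -0.64 and -0.815 (-0.11 and -0.31 at its dimmer probe), and Shh had -0.63 and -0.45. None of these 20 genes passed. The part of tissue makeup in the ratios of the granule and calprotectin genes was not tested.

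The remaining cell types gave mixed values. Monocyte markers had medians of -0.0092 and 0.14 (4 of 6 measured), and 0 of 5 eosinophil markers passed the filter. Megakaryocyte markers had medians of 0.26 and -1.17, mast cell and basophil markers 0.17 and -0.43, and lymphocyte markers 0.18 and 0.014. Squamous epithelial markers, which were included because skin epithelium also makes S100a8 and S100a9, had 0.080 and 0.048, with 5 of 7 measured.

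Promoters were read for all 9 genes from RefSeq on GRCm38.p6, and 3 are printed as examples from the calprotectin, late and early groups. The 3 motifs below were searched, chosen after the promoter sequences had been seen, in a window of 250 bases before to 50 bases after the gene start. They were the ETS motif of PU.1, GAGGAAGT, and the C/EBP motif, TTGCNNAA, both on either strand, and the TATA box, TATAAA, on the strand of the gene. The motifs do not overlap in these promoters. Shown are the 250 bases before the gene start, with matches in capitals.
S100a8, chr3:90668821-90669070, plus strand: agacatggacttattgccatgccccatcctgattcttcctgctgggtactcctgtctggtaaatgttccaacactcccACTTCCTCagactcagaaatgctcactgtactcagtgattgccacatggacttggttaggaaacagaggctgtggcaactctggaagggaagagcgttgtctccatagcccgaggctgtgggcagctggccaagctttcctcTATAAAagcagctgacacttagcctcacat
Ltf, chr9:111019042-111019291, plus strand: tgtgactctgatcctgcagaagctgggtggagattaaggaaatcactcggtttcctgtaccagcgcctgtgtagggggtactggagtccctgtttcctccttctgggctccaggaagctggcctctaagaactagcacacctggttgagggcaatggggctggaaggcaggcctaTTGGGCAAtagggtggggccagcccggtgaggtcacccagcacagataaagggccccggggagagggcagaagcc
Prtn3, chr10:79879417-79879666, plus strand: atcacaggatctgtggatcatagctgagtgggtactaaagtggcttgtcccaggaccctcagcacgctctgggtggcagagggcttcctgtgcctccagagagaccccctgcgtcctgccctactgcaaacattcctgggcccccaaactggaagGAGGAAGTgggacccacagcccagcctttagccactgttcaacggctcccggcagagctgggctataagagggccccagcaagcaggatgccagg
The S100a8 promoter holds the ETS motif on the reverse strand and a TATA box, the Ltf promoter holds the C/EBP motif, and the Prtn3 promoter holds the ETS motif.

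All 3 early granule genes, Mpo, Elane and Prtn3, held the ETS motif, as did S100a8, against 3.2% of 32817 promoters. Of the late granule genes, Ltf, Ngp and Lcn2 held the C/EBP motif, as did S100a9, against 10.8% of promoters. Camp held neither. The letters TATAAA were present in S100a8 and S100a9, against 8.32% of promoters. Their first base lay at -30 from the gene start in S100a8 and at 0, the gene start itself, in S100a9. The motifs were chosen with these promoters seen, so no difference between the groups is read from these shares. A match describes letters in this window and is no evidence of binding in the ureter.

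**Figure D5:**
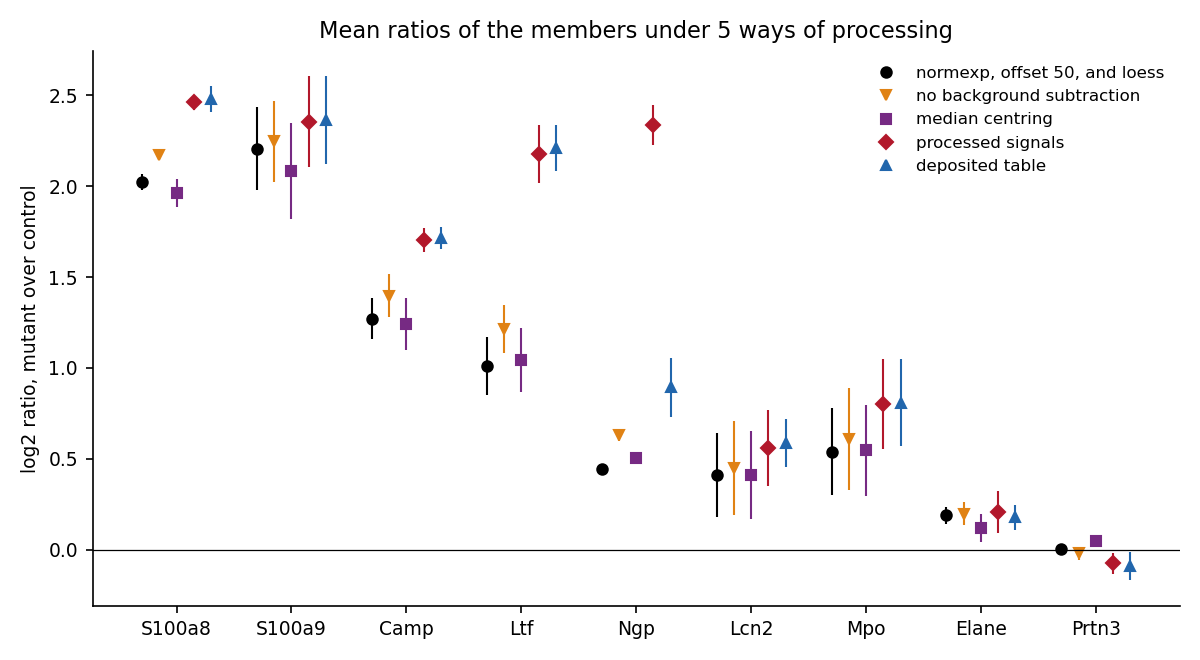
Mean log2 ratio of mutant over control for each member under 5 ways of processing the same 2 arrays; points are means and lines join the values of the 2 arrays. S100a8 and S100a9 lie near or above 2 in each, and Ltf and Ngp move most, reaching 2.18 and 2.34 with the processed signals.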

How the data were processed

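RNA of mutant and control ureter pools was hybridised on 2 two-colour Agilent arrays of 174979 spots each, and the submitters' processing notes name Agilent Feature Extraction 10.7.3.1. The deposited mean and background signals are unnormalized intensity values per the file headers. The processed signals are intensity values that, per the file headers, the software background-subtracted and dye-normalised. In the authors' deposited table the score of a probe is a signed linear fold, and the sources used here do not say how it was made. It correlated with the processed signals at 0.973 and 0.991, its column medians were 1, its sign ran mutant over control, and its centring is unknown. Both arrays lay on slide 1.

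With limma 3.58.1 in R 4.3.3, background was corrected by normexp (offset 50) and arrays by loess (span 0.3, control spots at weight 0). Spots with an outlier flag (3.35% and 3.05%) were dropped, and the rest averaged per probe. The array 2 ratio was turned in sign. Probes were kept when over a share of 0.5 of spots were well above background in one group on both arrays (27493 of 39429), and the brightest kept probe stood for its gene. Names came from RefSeq, GRCm38.p6 (28328 of 39429 probes matched). All 20923 genes were fitted with lmFit and eBayes (1 residual degree of freedom, threshold 0.05), and p-values reflect only how far these 2 arrays differ. Tested on simulated data, the fit recovered planted folds but called unchanged genes above the nominal share, so adjusted p-values may be too small. The members and lists were chosen with earlier results of these data known. Named are all member probes, genes of each list that passed or up to 4 with the largest same-sign mean ratio, and the 5 nearest genes, and some list genes are not reported here. The alternatives were other background handling, normalization, probe filters, probe summaries and single arrays.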

Additional observations from a re-analysis of the deposited data

Results flagged for a closer look

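The sign of 7 values differed between the female array 1 and the male array 2, and none of these differences was tested. Prtn3 had -0.0080 on array 1 and 0.012 on array 2. The median of the granulocyte transcription factors was 0.041 and -0.093, and that of the inducers of granulocytes and acute inflammation was 0.056 and -0.0053. The monocyte median was -0.0092 and 0.14. The megakaryocyte and platelet median was 0.26 and -1.17, the largest gap among them, and the mast cell and basophil median was 0.17 and -0.43. The haematopoietic progenitor median was 0.12 and -0.11. Each array holds 1 sex and 1 dye orientation, so these cannot be told apart.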

How the results depend on the processing

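No paired analysis was possible because each array already sets a mutant pool against a control pool, so the ratio within an array is the only value and no block is left to fit. Across the alternatives, the 9 members' ratios kept their direction except that of Prtn3, which was -0.092 in the authors' deposited table, -0.024 with the median of spots, -0.021 without background subtraction, -0.075 with the processed signals and -0.0080 on array 1 alone (0.012 on array 2 alone). With the scanner software's processed signals the mean ratio was 2.41 for calprotectin and 1.69 for the late granule genes, the late minus early difference was 1.38, and 11 genes passed. In the authors' deposited table these means were 2.42 and 1.35 and the difference 1.05. The difference was 0.50 with all probes of a gene averaged, 0.66 without background subtraction and 0.65 when both groups had to be well above background, which drops Ngp. Single arrays gave 1.98 to 2.25 for calprotectin, 0.66 to 0.90 for late genes, 0.14 to 0.34 for early genes and 0.52 to 0.56 for the difference. By limma, 6 genes passed, with 845 at an unadjusted p under 0.05. The count was 0 after median centring (853 unadjusted), where the median of all genes was -0.084, and 0 without the filter on dim probes (1076 unadjusted), and 2 members became 0 in both. It was 11 with outlier-flagged spots kept and 12 with probes above background in both groups. Ngp and the control signal of Ltf lie close to background, which limits the precision of their fold.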
